A study of Mus musculus with 12 samples.

Results

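The peroxiredoxins, superoxide dismutases and catalase are the enzymes that remove superoxide and peroxides. The group was chosen by name and comprised 6 peroxiredoxins (Prdx1 to Prdx6), 3 superoxide dismutases (Sod1, Sod2 and Sod3) and catalase (Cat). All 10 were among the 13233 genes with deposited normalized counts. They were followed by RNA-Seq in primary hernia-associated fibroblasts (HAFs) cultured from the lower abdominal muscle (LAM) of Aromhum mice. These animals carry human aromatase, which converts testosterone to estradiol (E2). Every sample carried this genotype, so no wild-type cells were among the groups compared. The 12 samples formed 4 groups of 3 replicates, each treated for 48 h. One group received vehicle, a mix of ethanol and DMSO, and another received E2 at 10 nM. Fulvestrant, an antagonist of the estrogen receptor ESR1 that also lowers the receptor protein, was given at 100 nM to the remaining groups, with the same dose of E2 in one of them and alone in the other. According to the methods the cells were kept in medium with little charcoal-stripped serum and received fulvestrant or DMSO before E2 or ethanol was added. The labels did not state whether replicates were separate mice or separate cultures, so the p-values measure only the spread between these samples.

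Superoxide dismutases turn superoxide into hydrogen peroxide, in the cytosol (SOD1), the mitochondrial matrix (SOD2) and the extracellular space (SOD3). Peroxiredoxins reduce hydrogen peroxide and lipid peroxides through a reactive cysteine, which for most of them is reset by thioredoxin and for PRDX6 by glutathione, and catalase breaks hydrogen peroxide down in peroxisomes. In fibroblasts peroxide also acts as a signal, and PRDX4 uses it in the endoplasmic reticulum to help form the disulfide bonds of secreted proteins. The transcription factor NRF2, encoded by Nfe2l2 and held back by KEAP1, binds antioxidant response elements (AREs) and is a known activator of several genes of this defense, Prdx1 among them.

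Each sample held between 18827792 and 44040507 reads on the listed genes (median 31703872). All 8 fibroblast markers were listed, none of 8 skeletal muscle and none of 3 adipocyte markers, 1 of 4 endothelial markers (Tek, 58 to 277 normalized counts), 2 of 5 leukocyte markers (Cd68 and Lyz2, summed 91 to 389) and 3 of 4 pericyte and smooth muscle markers (summed 1940 to 4439). Relative to vehicle, Lyz2 was lower with E2 plus fulvestrant (log2 -0.96, limma adjusted p = 0.0403). The pericyte marker Notch3 was lower with fulvestrant (log2 -0.85, limma adjusted p = 0.0125). No leukocyte, pericyte or smooth muscle marker was higher at an adjusted p under 0.05 in these comparisons. The summed fibroblast markers ranged from 476506 to 540764 normalized counts with vehicle, from 550432 to 612089 with E2, from 412802 to 433310 with E2 plus fulvestrant and from 381881 to 450019 with fulvestrant, and their part in the results on the antioxidant enzymes was not tested. Pgr, a gene induced through ESR1, had 145, 268 and 304 normalized counts with E2 and 15, 28 and 27 with E2 plus fulvestrant. The samples numbered 1 stood apart from those numbered 2 and 3 in every group, with 10.3% of genes over 2-fold higher or lower in them, and 2 of these genes, Sod3 and Prdx1, belong to the enzyme group. The replicate number was therefore kept as a block in the fit, and values without it or without replicate 1 are given where they change a call.

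Promoter sequences (GRCm38.p6, RefSeq, 250 bases before to 50 bases after the gene start) were found for 8 of the 10 genes, all but Prdx6 and Sod3. The ARE core, TGACNNNGC on either strand, was present in Prdx1 (position -133 from the start) and Sod1 (position -56) and in none of the other 6. Of 32851 mouse promoters of the same length, 12.4% held it. The palindromic estrogen response element (GGTCA, any 3 bases, TGACC) was in none of the 8 and in 0.07% of all promoters, and a FoxO site, GTAAACA, was also in none of the 8 against 3.65% of all. The GC box, GGGCGG on either strand, was in all 8, against 35.7% of all promoters, and Prdx4 carried 3 of them at positions -68, -40 and -30. The sequences of Prdx1 and Sod1 are shown because they alone hold an ARE core, and that of Prdx4 because it was the gene of the group that differed most clearly with treatment. Capitals mark the ARE core in Prdx1 (chr4:116685349-116685648, plus strand) and Sod1 (chr16:90220512-90220811, plus strand), and the GC boxes in Prdx4 (chrX:155338411-155338710, minus strand), a window inside the GENCODE span of that gene.
Prdx1: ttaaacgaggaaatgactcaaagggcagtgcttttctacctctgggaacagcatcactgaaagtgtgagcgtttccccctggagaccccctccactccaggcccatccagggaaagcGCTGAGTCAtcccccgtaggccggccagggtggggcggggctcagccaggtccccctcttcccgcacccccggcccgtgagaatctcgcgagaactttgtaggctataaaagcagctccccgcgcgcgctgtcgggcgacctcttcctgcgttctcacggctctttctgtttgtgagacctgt
Sod1: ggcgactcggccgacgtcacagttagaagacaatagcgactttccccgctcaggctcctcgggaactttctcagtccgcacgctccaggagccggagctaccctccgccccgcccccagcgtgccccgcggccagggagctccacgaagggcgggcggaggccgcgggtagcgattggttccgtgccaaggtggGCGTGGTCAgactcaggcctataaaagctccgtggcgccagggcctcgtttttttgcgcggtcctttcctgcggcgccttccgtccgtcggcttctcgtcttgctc
Prdx4: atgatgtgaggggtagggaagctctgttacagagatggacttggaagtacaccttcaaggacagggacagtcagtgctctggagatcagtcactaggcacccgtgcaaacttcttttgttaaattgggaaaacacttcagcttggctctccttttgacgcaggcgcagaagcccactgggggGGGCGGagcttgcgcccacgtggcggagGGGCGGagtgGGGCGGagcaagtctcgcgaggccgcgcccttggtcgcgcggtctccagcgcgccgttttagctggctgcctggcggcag
These letters describe the windows only, and binding at them was not measured here.

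The enzymes were expressed at widely different levels. Per kilobase of merged exons, Prdx1 was highest in vehicle-treated HAFs at 4008 ± 1345 normalized counts per kb (SD, n = 3), followed by Cat at 2180 ± 376 (SD, n = 3). Sod1 (1137 ± 162), Prdx2 (1105 ± 85), Prdx6 (1093 ± 290) and Prdx4 (987 ± 150) came next and did not differ from their neighbors beyond the SD. Sod3 (801 ± 572), Prdx3 (735 ± 25) and Prdx5 (704 ± 47) followed, again within their spread, and Sod2 was lowest at 191 ± 24 normalized counts per kb. The Sod2 value was computed over 10008 bases of merged exons, of which 16.2% of the 75-base stretches also occur in transcripts of other genes, so its level is uncertain. Such shared stretches made up 4.0% of Prdx1 (Gm21399 and Gm7204), 2.8% of Prdx2 (Tdpx-ps1) and 1.7% of Sod1 (Gm8566), and were 0.0% for the other 6. On the opposite strand, 19.1% of Prdx5 exon sequence overlapped Trmt112 and 11.5% of that of Prdx2 overlapped Junb and Rnaseh2a, and according to the methods reads were counted by strand.

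**Figure D1:**
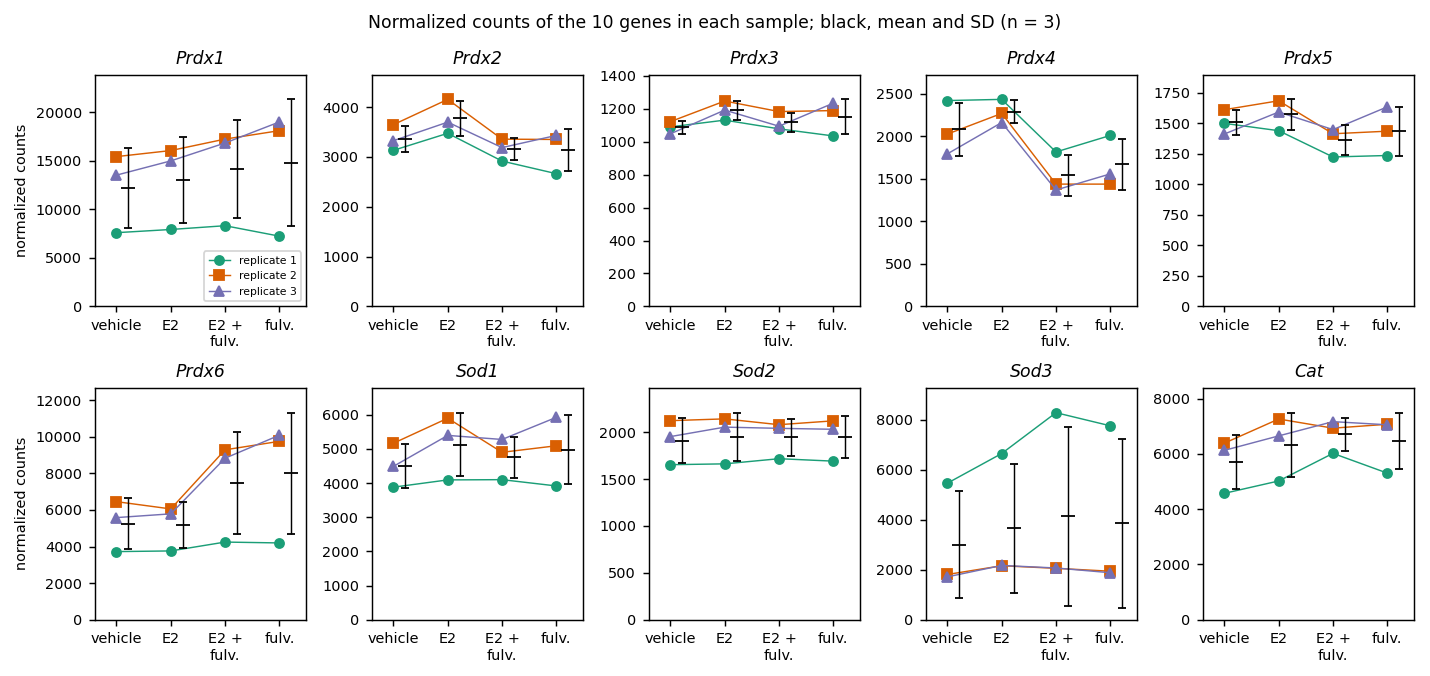
Normalized counts (y axis, linear from 0) of the 10 antioxidant enzyme genes in each of the 12 samples by treatment group (x axis; fulv., fulvestrant), with lines joining samples of the same replicate number and black marks giving the mean and SD of each group (n = 3). Prdx4 falls from E2 to both fulvestrant groups on all 3 lines, Prdx6 rises mainly in replicates 2 and 3, and replicate 1 lies apart for Prdx1, Prdx6 and Sod3.

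The comparison of E2 with E2 plus fulvestrant asks what fulvestrant changes in the presence of E2. Prdx4 was higher with E2 and Prdx6 was lower, and the other 8 genes were not called. A gene was called at a limma adjusted p-value under 0.05 (Benjamini-Hochberg over all 13233 genes) and a fold change over 1.2. Of all genes, 4.62% were called higher with E2 and 4.97% lower, and 1 of 10 in each direction is too small a count to tell apart from this background. The median log2 fold change was 0.05 over the 10 enzymes and -0.01 over all genes. Relative to vehicle, fulvestrant alone gave 1 gene higher and 1 lower (6.76% and 5.69% of all genes called), and E2 plus fulvestrant gave 2 higher and 1 lower (7.04% and 5.66% of all genes). The median of the 10 was 0.11 for fulvestrant and 0.06 for E2 plus fulvestrant, against 0.01 over all genes in both. The comparisons share samples (E2 plus fulvestrant or vehicle), so they do not count as separate evidence for the same gene. Without the replicate block none of the 10 was called in any comparison. That fit called 69 genes in all between E2 and E2 plus fulvestrant, 72 between fulvestrant and vehicle and 60 between E2 plus fulvestrant and vehicle. The median standard error of a log2 fold change was 0.09 with the block and 0.18 without it.

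**Figure D2:**
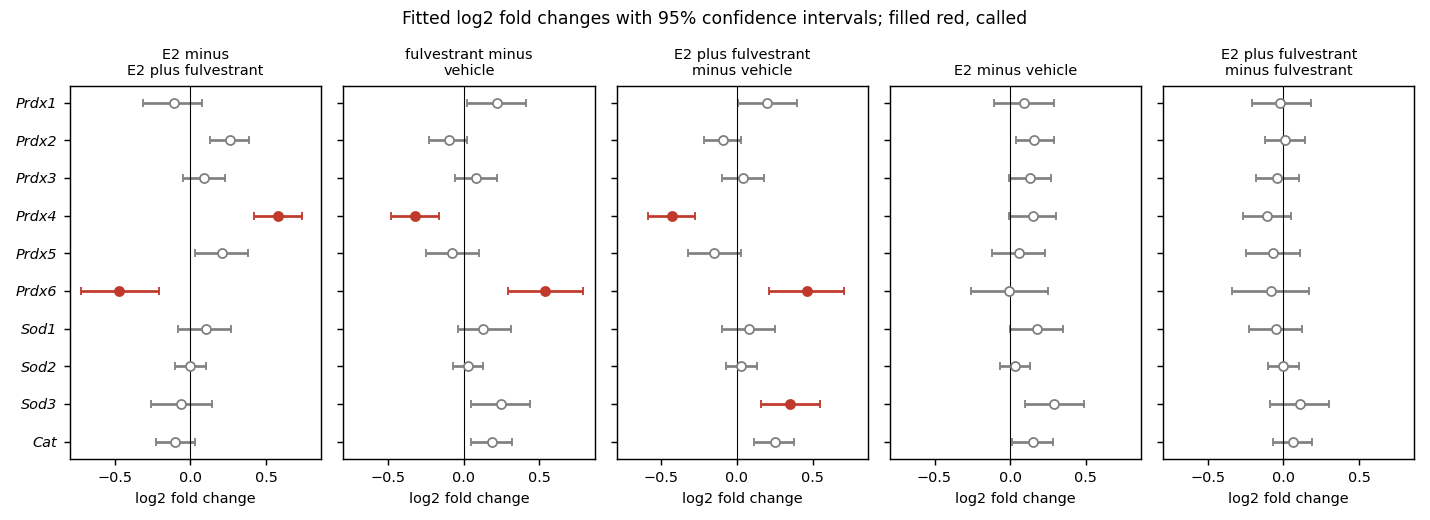
Log2 fold change (x axis) of each antioxidant enzyme gene (y axis) in 5 comparisons, fitted with limma with the replicate number as a block on all 12 samples, with 95% confidence intervals. Filled red points are called (adjusted p under 0.05 and fold over 1.2), namely Prdx4 and Prdx6 in the 3 leftmost panels and Sod3 in the third.

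Prdx4, the peroxiredoxin of the endoplasmic reticulum (chromosome X of GRCm38, 155323918 to 155340754, minus strand), was the gene of the group whose level followed fulvestrant treatment most closely. It had 2433, 2268 and 2161 normalized counts with E2 and 1815, 1437 and 1368 with E2 plus fulvestrant in replicates 1, 2 and 3. All 3 E2 samples lay above all 3 samples with both agents. The log2 fold change was 0.58 (standard error 0.07, 95% CI 0.42 to 0.74, limma adjusted p = 5.7e-04), a 1.49-fold difference seen in 3 of 3 pairs. It stayed called when any single library or replicate number was left out (log2 0.53 to 0.66), and without the block the adjusted p was 0.232.

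With vehicle Prdx4 had 2419, 2025 and 1793 normalized counts and with fulvestrant alone 2009, 1437 and 1557. The ranges overlapped because vehicle replicate 3 lay below fulvestrant replicate 1, but each fulvestrant sample was below the vehicle sample of its own number. Prdx4 fell by 0.32 on the log2 scale with fulvestrant (standard error 0.07, limma adjusted p = 0.0124) and by 0.43 with E2 plus fulvestrant (standard error 0.07, limma adjusted p = 0.00251). Without the block these adjusted p-values were 0.714 and 0.429. The call for fulvestrant alone was lost without vehicle replicate 2 (log2 -0.29, adjusted p = 0.0606), without fulvestrant replicate 2 (log2 -0.24, adjusted p = 0.0632), and without all samples numbered 2 (adjusted p = 0.16) or 3 (adjusted p = 0.0863). It was also lost with the block on the 2 groups alone (adjusted p = 0.0768). That for E2 plus fulvestrant was kept without any of these samples (log2 -0.48 to -0.40). Treatment accounted for 66.6% of the variance of Prdx4 over the 12 samples, the largest share among the 10 genes, and replicate number for 27.9%.

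Prdx6, which reduces peroxidized phospholipids with glutathione (chromosome 1, 161240112 to 161251219, minus strand), went the other way. Its normalized counts were 3758, 6054 and 5785 with E2, and 4242, 9285 and 8826 with E2 plus fulvestrant. They were 3721, 6451 and 5580 with vehicle and 4195, 9748 and 10082 with fulvestrant. Replicates 2 and 3 were higher in both fulvestrant groups than in any sample without fulvestrant, while replicate 1 stayed between 3721 and 4242 throughout, so the groups overlapped. The log2 fold change of Prdx6 between E2 and E2 plus fulvestrant was -0.47 (standard error 0.11, 95% CI -0.72 to -0.21, limma adjusted p = 0.0249). The difference was -0.17 in the pair numbered 1 against -0.62 and -0.61 in the others. Prdx6 rose by 0.54 with fulvestrant (standard error 0.11, limma adjusted p = 0.0102) and by 0.46 with E2 plus fulvestrant (standard error 0.11, limma adjusted p = 0.0212), each relative to vehicle and in 3 of 3 pairs. Without the block the 3 adjusted p-values were 0.992, 0.937 and 0.95.

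The Prdx6 difference was larger in replicates 2 and 3 than in replicate 1. Without replicate 1 it was -0.61 between E2 and E2 plus fulvestrant (limma adjusted p = 1.9e-04) and 0.72 between fulvestrant and vehicle (adjusted p = 5.1e-05). The call between E2 and E2 plus fulvestrant was lost without E2 replicate 2 (adjusted p = 0.109) or 3 (0.11), without E2 plus fulvestrant replicate 2 (0.108) or 3 (0.107), and without all samples numbered 2 (0.276) or 3 (0.175). The call between fulvestrant and vehicle was lost without vehicle replicate 3 (adjusted p = 0.0571), without fulvestrant replicate 2 (0.0512) or 3 (0.0557), and without all samples numbered 2 (0.131) or 3 (0.179). The call between E2 plus fulvestrant and vehicle was lost without vehicle replicate 2 (adjusted p = 0.0717) or 3 (0.103), without E2 plus fulvestrant replicate 2 (0.0867) or 3 (0.0947), and without all samples numbered 2 (0.177) or 3 (0.182). It was also lost with quantile normalization (log2 0.38, adjusted p = 0.0517). Without a variance trend the first and the last of these calls were lost (adjusted p = 0.0653 and 0.0557), and on the 2 groups alone that between fulvestrant and vehicle was lost (0.0594). In all of these fits the direction was kept. Leaving out libraries gave log2 fold changes of -0.61 to -0.39 between E2 and E2 plus fulvestrant. They were 0.38 to 0.72 for fulvestrant and 0.36 to 0.59 for E2 plus fulvestrant, each against vehicle.

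Prdx2, a cytosolic peroxiredoxin regenerated by thioredoxin (chromosome 8, 84969587 to 84974834, plus strand), lay at the edge of the call. Its normalized counts were 3476, 4157 and 3700 with E2 and 2918, 3358 and 3189 with E2 plus fulvestrant. The groups did not overlap, and E2 was higher in 3 of 3 pairs. The log2 fold change was 0.26 (standard error 0.06, 95% CI 0.13 to 0.39, limma adjusted p = 0.0158), just under the fold threshold. It passed the threshold without E2 replicate 3 (log2 0.29) or E2 plus fulvestrant replicate 1 (log2 0.28), and also with quantile normalization (log2 0.29, adjusted p = 0.00955) or CPM (log2 0.27, adjusted p = 0.0105). Leaving out libraries gave log2 0.23 to 0.29 and adjusted p-values from 0.00552 to 0.214. Without the block the adjusted p was 0.673. With fulvestrant alone it had 2665, 3352 and 3433 normalized counts against 3134, 3650 and 3328 with vehicle, a log2 difference of -0.10 (95% CI -0.23 to 0.02, adjusted p = 0.257), and the groups overlapped.

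Prdx1, the most abundant of the cytosolic peroxiredoxins (chromosome 4, 116685544 to 116700822, plus strand), varied more by replicate number than by treatment. It had 7602, 15448 and 13537 normalized counts with vehicle, 7931, 16071 and 15006 with E2, 8320, 17254 and 16852 with E2 plus fulvestrant, and 7244, 18123 and 19020 with fulvestrant. In replicates 2 and 3 the fulvestrant samples were the highest of the 4 groups, and in replicate 1 the fulvestrant sample was the lowest. The log2 difference of fulvestrant from vehicle was 0.22 (95% CI 0.02 to 0.41, limma adjusted p = 0.124) and was not called. It was called without all samples numbered 1 (log2 0.36, adjusted p = 0.00558) and without fulvestrant replicate 1 alone (log2 0.34, adjusted p = 0.00666). Between E2 and E2 plus fulvestrant the difference was -0.11 (95% CI -0.31 to 0.08, adjusted p = 0.448).

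Neither mitochondrial peroxiredoxin was called. Prdx3 (chromosome 19, 60864051 to 60874556, minus strand), found only in mitochondria, ranged from 1035 to 1247 normalized counts over the 12 samples, the narrowest span of the group. Its log2 difference between E2 and E2 plus fulvestrant was 0.09 (95% CI -0.05 to 0.23, limma adjusted p = 0.383). Prdx5, which also works in peroxisomes and the cytosol (chromosome 19, 6906697 to 6910106, minus strand), had 1438, 1683 and 1591 normalized counts with E2 and 1223, 1413 and 1447 with E2 plus fulvestrant. E2 was higher in 3 of 3 pairs with overlapping groups, and the log2 difference of 0.21 (95% CI 0.03 to 0.38) did not pass the test (adjusted p = 0.118).

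Among the superoxide dismutases, only Sod3 was called, and only between E2 plus fulvestrant and vehicle. Sod3, the secreted enzyme that binds the extracellular matrix (chromosome 5, 52363791 to 52371418, plus strand), had 5460, 1808 and 1713 normalized counts with vehicle and 8279, 2054 and 2067 with E2 plus fulvestrant. Each sample with both agents was above the vehicle sample of its number, and the groups overlapped. Sod3 rose by 0.35 on the log2 scale (standard error 0.09, 95% CI 0.16 to 0.55, limma adjusted p = 0.0221), with 0.60 in the pair numbered 1 and 0.18 and 0.27 in the others. Without the block the adjusted p was 0.962. The call was lost without vehicle replicate 1 (log2 0.27, adjusted p = 0.0861) or 3 (0.0547), without E2 plus fulvestrant replicate 1 (log2 0.27, adjusted p = 0.117) or 3 (0.0575), and without all samples numbered 2 (0.0782) or 3 (0.123). It was also lost without a variance trend (adjusted p = 0.0567). Without all samples numbered 1 the change was 0.23, under the fold threshold, with an adjusted p of 0.023.

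The other Sod3 groups were 6646, 2157 and 2169 normalized counts with E2 and 7754, 1938 and 1878 with fulvestrant. Every treated sample exceeded the vehicle sample of its own number. The log2 differences from vehicle were 0.29 for E2 (95% CI 0.10 to 0.49, limma adjusted p = 0.456) and 0.25 for fulvestrant (95% CI 0.05 to 0.44, adjusted p = 0.0864), and neither was called. E2 and E2 plus fulvestrant differed by -0.06 (95% CI -0.26 to 0.14, adjusted p = 0.716), and by 0.07 without replicate 1.

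Sod1 (chromosome 16, 90220754 to 90226329, plus strand), the copper and zinc enzyme of the cytosol, had 3880, 5167 and 4490 normalized counts with vehicle and 4093, 5899 and 5396 with E2. It had 4100, 4901 and 5277 with E2 plus fulvestrant and 3916, 5092 and 5924 with fulvestrant, and all groups overlapped. The log2 difference between E2 and E2 plus fulvestrant was 0.10 (95% CI -0.08 to 0.27, limma adjusted p = 0.456). Sod2 (chromosome 17, 13006846 to 13040063, plus strand), the manganese enzyme of mitochondria, had the tightest estimates of the group, with a standard error of 0.04. Its log2 difference between E2 and E2 plus fulvestrant was 0.00 (95% CI -0.10 to 0.10), and those of fulvestrant and of E2 plus fulvestrant from vehicle were both 0.03 (95% CI -0.07 to 0.13). Both of the latter were below 0, at -0.01 and -0.02, with quantile normalization or CPM (counts scaled to the same total).

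Catalase (Cat, chromosome 2, 103453849 to 103485160, minus strand) had 4573, 6389 and 6128 normalized counts with vehicle, 5020, 7262 and 6651 with E2, 6019, 6931 and 7167 with E2 plus fulvestrant, and 5305, 7072 and 7053 with fulvestrant. Vehicle was the lowest group within each replicate number. The log2 difference of E2 plus fulvestrant from vehicle was 0.25 (95% CI 0.11 to 0.38, limma adjusted p = 0.0195), whose fold of 1.19 was under the threshold. It passed without vehicle replicate 2 (log2 0.27), without E2 plus fulvestrant replicate 2 (log2 0.31) and without all samples numbered 2 (log2 0.31). The pair differences were 0.40, 0.12 and 0.23 in replicates 1, 2 and 3. Without all samples numbered 1 the difference was 0.17 (adjusted p = 0.0763), and without the block the adjusted p was 0.934. The differences from vehicle were 0.19 for fulvestrant (95% CI 0.05 to 0.32, adjusted p = 0.0594) and 0.15 for E2 (95% CI 0.01 to 0.28, adjusted p = 0.476).

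With E2 alone none of the 10 genes was called relative to vehicle in the limma fit, which called 0.0756% of all genes higher and 0% lower. At an unadjusted p under 0.05 there were 4 of the 10 (Sod3, Prdx2, Sod1 and Cat) and 1340 of 13233 genes, and the fit without the block called 1 gene in all. The log2 differences of these 4 enzymes were 0.29, 0.16, 0.18 and 0.15 in the order named. Prdx3 had 1131, 1247 and 1192 normalized counts with E2 against 1090, 1122 and 1048 with vehicle (log2 0.13, 95% CI -0.01 to 0.27, adjusted p = 0.506). Prdx4 differed by 0.15 (95% CI -0.01 to 0.30, adjusted p = 0.511). The median log2 difference was 0.14 over the 10 and 0.01 over all genes.

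When fulvestrant was present, none of the 10 was called with E2 added (0% of all genes called higher and 0% lower in the limma fit), and at an unadjusted p under 0.05 there were 0 of the 10 and 255 of all genes. The log2 differences between E2 plus fulvestrant and fulvestrant alone ran from -0.11 for Prdx4 (95% CI -0.27 to 0.05) to 0.11 for Sod3 (95% CI -0.09 to 0.30). The interaction of E2 and fulvestrant, which tests whether the E2 difference depends on the antagonist, was called for 0 of the 10 and for 0% of all genes (501 at an unadjusted p under 0.05). Among the 10, Prdx4 alone had an unadjusted p under 0.05, with -0.26 on the log2 scale (95% CI -0.48 to -0.04, limma adjusted p = 0.944). The fit without the block also called 0 genes in both comparisons.

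The replicate numbers separated several of these enzymes more than the treatments did. Sod3 had 5460 to 8279 normalized counts in the 4 samples numbered 1 and 1713 to 2169 in the other 8, a 3.53-fold gap with no overlap. Prdx1 ran the other way, with 7244 to 8320 in replicate 1 and 13537 to 19020 in the rest (log2 -1.07), and so did Prdx6, with 3721 to 4242 against 5580 to 10082 (1.89-fold). Replicate number accounted for 96.5% of the variance of Sod3, 94.2% of that of Prdx1 and 97.6% of that of Sod2, whose gap was only 1.23-fold (1654 to 1718 against 1954 to 2143). Sod1 (3880 to 4100 against 4490 to 5924) and Cat (4573 to 6019 against 6128 to 7262) were each 1.31-fold lower in replicate 1. Prdx4 was 1.25-fold higher there, with overlapping ranges. These values are a description, since what the numbers stand for is not given in the labels. In cultures of this kind, a different share of cells and a different amount of RNA per cell cannot be told apart.

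Among the lists of related genes the gap by replicate number was unequal. Of the 17 genes of the NRF2 axis, 16 were lower in replicate 1 and 6 were over 2-fold lower (35.3%, against 4.91% of all genes). Hmox1, heme oxygenase 1, ranged from 1436 to 3203 normalized counts in replicate 1 and from 21763 to 44536 in the others. Slc7a11, which imports cystine for glutathione synthesis, ranged from 301 to 657 against 2075 to 4479. Srxn1, sulfiredoxin, which repairs overoxidized peroxiredoxins, ranged from 1265 to 2063 against 7736 to 13548. Gclc, the catalytic subunit of the first enzyme of glutathione synthesis, ranged from 1180 to 1776 against 4839 to 7346. In the glutathione list 6 of 23 genes (26.1%) were over 2-fold lower in replicate 1, in the thioredoxin list 2 of 15 and among the sources and metal suppliers 2 of 12. In the peroxisome list 0 of 18 were, and 7 of 18 were lower at all (median log2 0.08, against -0.02 over all genes). Over 2-fold higher in replicate 1 were 1 gene each of the glutathione list (Gstk1), the sources and metal suppliers (Nox4) and the peroxisome list (Ppargc1a), against 5.38% of all genes, and 0 of the other 2 lists. Keap1 showed no such gap, with 2293 to 2531 normalized counts against 2323 to 2445.

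**Figure D3:**
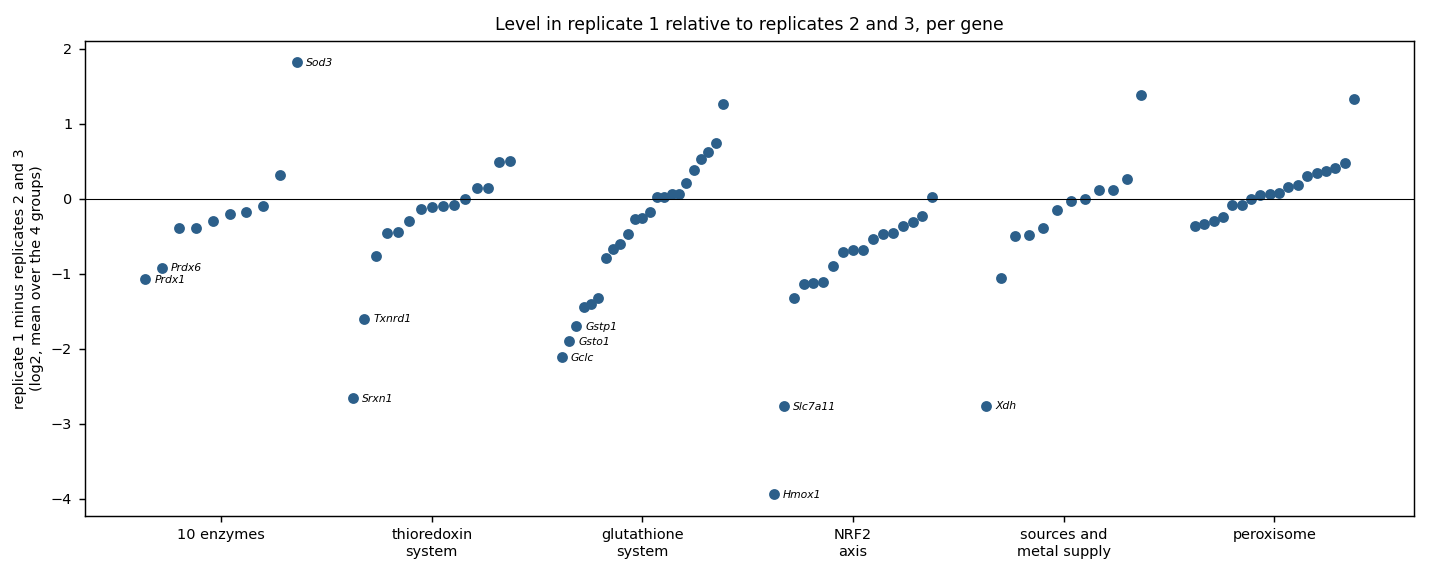
Log2 level in replicate 1 minus that in replicates 2 and 3, averaged over the 4 treatment groups (y axis), for each gene of the 10 antioxidant enzymes and 5 lists of related genes (x axis), 1 point per gene. Sod3 lies at 1.82 and Prdx1 at -1.07, and Hmox1 of the NRF2 axis is lowest at -3.94.

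The NRF2 axis comprised the NRF2 and partner genes and targets outside the enzyme group. Of its 17 measured genes, 10 rose and 0 fell with fulvestrant relative to vehicle, against 6.76% and 5.69% of all genes, with a median log2 fold change of 0.36 against 0.01 over all genes. The largest rises were in Slc7a11 (0.92), Hmox1 (0.78) and the ferritin heavy chain gene Fth1 (0.74), with limma adjusted p-values of 6.8e-04, 0.0038 and 0.00643. Nfe2l2 itself had 3174, 5793 and 5494 normalized counts with vehicle and 4347, 6741 and 6485 with fulvestrant. It was higher in 3 of 3 pairs with overlapping groups, and it rose by 0.30 (standard error 0.07, limma adjusted p = 0.0106), while Keap1 differed by -0.03 (adjusted p = 0.737). Between E2 and E2 plus fulvestrant, 5 of the 17 were lower with E2 and 0 higher (median -0.18, with 4.97% and 4.62% of all genes called), led by Slc7a11 (-0.82), Hmox1 (-0.78) and Abcc1 (-0.45). With E2 plus fulvestrant against vehicle 10 rose and 0 fell (7.04% and 5.66% of all genes). Without replicate 3 the counts were 1, 4 and 5 in these comparisons (E2 against E2 plus fulvestrant, fulvestrant and E2 plus fulvestrant against vehicle), and without replicate 2 the first was 2. Without the block they were each 0. The ARE core was in the promoters of 6 of the 15 genes of the axis with a sequence, and in 3781 of the 27025 genes with one in all.

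Of the thioredoxin system, which resets most peroxiredoxins, 15 of 17 listed genes were measured. Between E2 and E2 plus fulvestrant 1 was higher with E2 and 2 were lower, beside 4.62% and 4.97% of all genes, with a median of 0.05. Sesn3, a sestrin, was higher by 0.90 (limma adjusted p = 3e-04), and Srxn1 and the thioredoxin reductase gene Txnrd1 were lower by log2 differences of -0.58 and -0.35 (adjusted p = 0.00385 and 0.0289). Srxn1 had 1484, 8048 and 7817 normalized counts with E2 and 2063, 12167 and 12313 with E2 plus fulvestrant, higher with both agents in each pair while the ranges overlapped. With fulvestrant against vehicle 4 rose, led by Srxn1 (0.63), thioredoxin itself (Txn1, 0.48) and Txnrd1 (0.40), and Sesn3 fell by 0.77 (6.76% of all genes rose and 5.69% fell). With E2 plus fulvestrant against vehicle 3 rose and 1 fell, beside 7.04% and 5.66%. Without the replicate block 0 genes of this list were called in each of these comparisons. Leaving out 1 replicate number gave as few as 1 called gene in the first comparison (without replicate 2 or 3) and 2 or 1 in the second (without replicate 2 or 3), and the second gave 3 without vehicle or fulvestrant replicate 2 or 3. Srxn1 and Txnrd1 were among the 4 of 16 genes of this list whose promoters held the ARE core (3781 of 27025 genes in all).

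Of the glutathione system, which serves PRDX6 and the glutathione peroxidases, 23 of 24 genes were measured. Between E2 and E2 plus fulvestrant 3 were higher with E2 (Mgst3, 0.58, Gstm5, 0.39, and Gpx7, 0.37) and 3 lower (Gclc, -0.51, Glrx, -0.48, and Gclm, -0.42), with a median of -0.00, beside 4.62% and 4.97% of all genes. With fulvestrant against vehicle 7 rose and 3 fell, beside 6.76% and 5.69% of all genes. Gpx3, the secreted glutathione peroxidase, rose most (limma adjusted p = 7.3e-04), from 227, 239 and 231 normalized counts to 853, 479 and 532 without overlap. With E2 alone Gpx3 had 600, 465 and 444 normalized counts, also without overlap with vehicle (log2 difference 1.10, adjusted p = 0.0822), and was not called. Gstp1 (0.50) and Gclm (0.48) followed, and the falls were in Mgst3, Gstt1 and Gstm5. With E2 plus fulvestrant against vehicle 7 rose and 1 fell, beside 7.04% and 5.66%. Without the replicate block 0 genes of the list were called in each of these comparisons. The 6 calls between E2 and E2 plus fulvestrant became 3 without E2 replicate 2 or 3 or E2 plus fulvestrant replicate 1. They became 1 without replicate 2 and 2 without replicate 3 of all groups. The 10 between fulvestrant and vehicle became 6 without vehicle replicate 2 or 3 and 5 without fulvestrant replicate 2 or 3. They became 2 and 1 without all samples numbered 2 or 3. The 8 between E2 plus fulvestrant and vehicle became 5 without vehicle replicate 3 and 4 without E2 plus fulvestrant replicate 1 or 3. They became 5 and 2 without all samples numbered 2 or 3.

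Among the sources of superoxide and peroxide and the metal suppliers, 12 of 16 genes were measured. The monoamine oxidase gene Maob and the xanthine dehydrogenase gene Xdh, whose products release peroxide, had log2 differences of -0.97 and -0.61 between E2 and E2 plus fulvestrant. They rose by 1.02 and 0.81 with fulvestrant against vehicle (limma adjusted p = 3.6e-04 and 9.6e-04). The metal transporter gene Slc39a14 was also lower with E2 (-0.27), so 3 were lower and 0 higher in that comparison (4.97% and 4.62% of all genes), and 2 rose with fulvestrant and with E2 plus fulvestrant against vehicle (6.76% and 7.04% of all genes). Ccs, the copper chaperone of SOD1, was not called in any comparison (0.14 between E2 and E2 plus fulvestrant, adjusted p = 0.211). The 3 became 1 without replicate 2 or 3, and Maob alone was called without the block in each of these comparisons on all 12 samples (0 genes on the 2 groups compared).

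Of the 18 peroxisome genes, Ppargc1a, a coactivator of mitochondrial and peroxisomal gene programs, was the single one called between E2 and E2 plus fulvestrant, with 0.66 (limma adjusted p = 0.00718), and none was lower, so the count is near the share of all genes called (4.62% higher and 4.97% lower). With fulvestrant against vehicle it fell by 0.78 and Pex26 fell by 0.35, and it alone fell with E2 plus fulvestrant, where 5.69% and 5.66% of all genes fell. In the comparison of fulvestrant with vehicle, 1 gene of the list was called without vehicle replicate 1 or 2, E2 plus fulvestrant replicate 2 or 3, fulvestrant replicate 2, or all samples numbered 2 or 3, and with the block on the 2 groups alone. Pex5, the receptor that imports catalase, differed by 0.01 between E2 and E2 plus fulvestrant and between fulvestrant and vehicle (adjusted p = 0.937 and 0.916). Ppargc1a was no longer called between E2 and E2 plus fulvestrant without replicate 2, and a second gene was called with it without replicate 1 or E2 replicate 1. Without the replicate block 0 genes of this list were called in each of these comparisons. With E2 alone against vehicle no gene of these 5 lists was called.

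**Figure D4:**
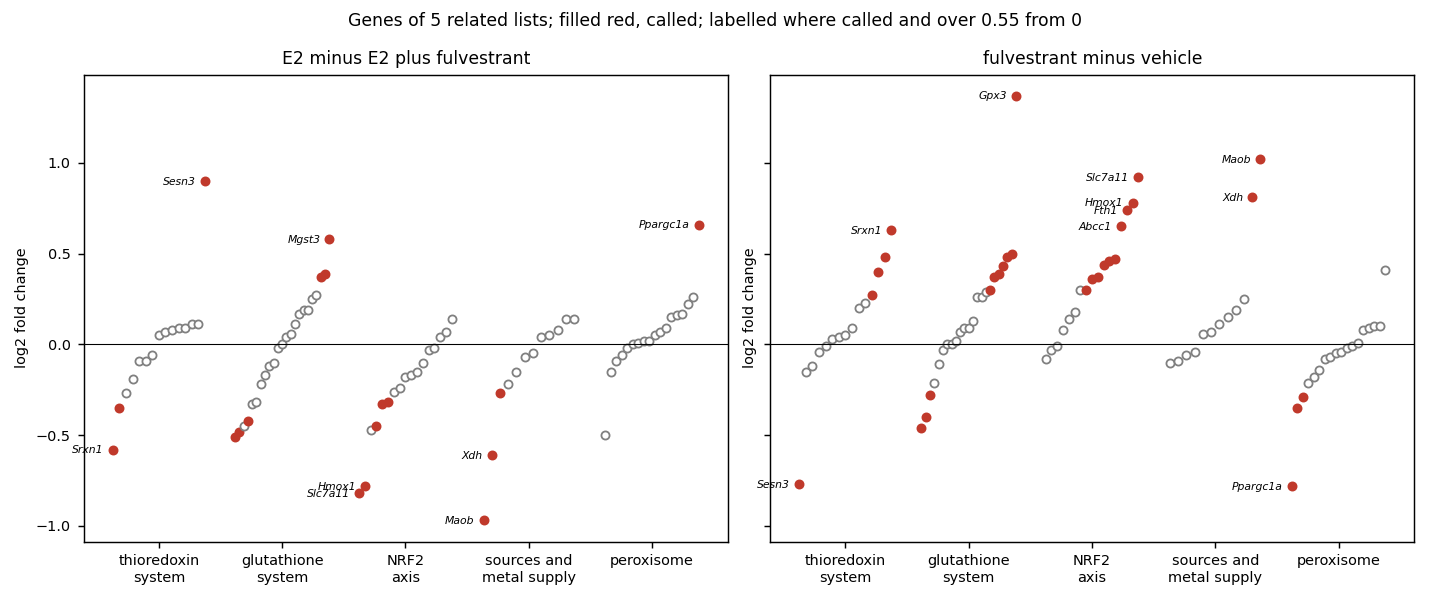
Log2 fold change (y axis) of each measured gene of 5 lists related to the antioxidant enzymes (x axis), between E2 and E2 plus fulvestrant (left) and between fulvestrant and vehicle (right), sorted within each list. Filled red points are called: in the NRF2 axis 5 lie below 0 on the left and 10 above 0 on the right.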

How the data were processed

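RNA-Seq libraries of 12 HAF samples were analyzed. According to the methods and the submitters' processing notes, the authors trimmed reads (Trimmomatic 0.39), removed rRNA, aligned to mm10 (STAR 2.5.2), counted by gene and strand (HTSeq 0.13.5), removed low counts and normalized by the median of ratios (DESeq2 1.37). The methods also name batch reduction with ComBat_seq and removeBatchEffect, yet the values still separated by replicate number. What the authors deposited is a signal, their normalized count of each gene in each library. Depth was recovered from the factor per sample that made 100.0% of values whole numbers of reads (within 0.001), the smallest being 10 reads. No per-sample column was left unused (0). Gene symbols, positions and exon lengths came from GENCODE M21 (GRCm38), with a symbol for 13149 of 13233 identifiers.

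Log2(normalized count + 1) was fitted with limma 3.58.1 (R 4.3.3; eBayes with a variance trend) on all 12 samples with the replicate number as a block, leaving 6 residual degrees of freedom. Benjamini-Hochberg adjustment ran over every gene, and calls needed an adjusted p under 0.05 and a fold over 1.2 (adjusted p alone for the interaction). Fold changes are on this log2 scale, which slightly understates changes of low genes. The pairing by number comes from the labels' sample names. Deviations from the group means correlated across genes at 0.63 to 0.92 in all 18 pairs with the same number (mean 0.76), and at -0.86 to 0.79 in the 36 pairs with different numbers (mean -0.29), so some of the latter exceeded the lowest of the former. The fit was also run on simulated counts with the same treatment effect in every replicate. That setting does not cover effects that differ by replicate number. Python 3.11.15 (pandas 2.3.3, numpy 2.4.6) read the files and matplotlib 3.10.9 drew the plots.

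The named genes were all 10 enzymes, up to 3 of the largest called rises and falls per related list and comparison, and Nfe2l2, Keap1, Srxn1, Ccs and Pex5. Replicate 1 values of Hmox1, Slc7a11 and Gclc, and Pgr as a check of E2 signaling, were added after values were seen. The genes and lists were chosen with earlier results of these data known. Alternatives were a fit with no block, the 2 groups alone, eBayes without the trend, pseudocounts of 0.5 and 10, a mean of at least 100, CPM or quantile normalization, calls by adjusted p alone, and leaving out libraries. A gene that falls under the naming rule is omitted. ChIP-Seq, ATAC-seq and animal data were not analysed here.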

Additional observations from a re-analysis of the deposited data

How the results depend on the processing

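The number of called enzymes was 2 between E2 and E2 plus fulvestrant, 2 between fulvestrant and vehicle and 3 between E2 plus fulvestrant and vehicle, and each became 0 with no replicate block, on all 12 samples or, in a fit added after seeing the data, on the 2 groups compared. With the block on the 2 groups alone the count for fulvestrant against vehicle was 0, and without a variance trend the other counts were each 1. Leaving out libraries gave 1 to 3 (E2 against E2 plus fulvestrant), 0 to 3 (fulvestrant) and 1 to 3 (E2 plus fulvestrant). The fit without the block changed no other count of called enzymes, and it left 0 calls in the thioredoxin, glutathione, NRF2 and peroxisome lists. Between fulvestrant and vehicle, the block on the 2 groups alone gave 3 thioredoxin, 2 glutathione, 6 NRF2 and 1 peroxisome genes called. Peroxisome genes called between E2 and E2 plus fulvestrant were 2 with quantile normalization or CPM and 3 by adjusted p alone, and between E2 plus fulvestrant and vehicle 2 with CPM and 3 by adjusted p alone. Prdx2 between E2 and E2 plus fulvestrant was called with quantile normalization (0.29) or CPM (0.27), and Prdx6 between E2 plus fulvestrant and vehicle was not called with quantile normalization (0.38). The Sod2 differences from vehicle became -0.01 (fulvestrant) and -0.02 (E2 plus fulvestrant) with quantile normalization or CPM. Leaving out libraries moved uncalled log2 differences across 0 for Sod3 between E2 and E2 plus fulvestrant (-0.12 to 0.07), Prdx5 (-0.04 to 0.14) and Prdx6 (-0.13 to 0.09) between E2 and vehicle, Prdx5 between fulvestrant and vehicle (-0.22 to 0.02), and Sod1 between E2 plus fulvestrant and vehicle (-0.01 to 0.16). Between E2 plus fulvestrant and fulvestrant they did so for Prdx1 (-0.14 to 0.09), Prdx2 (-0.05 to 0.08), Prdx3 (-0.10 to 0.03), Prdx5 (-0.13 to 0.02), Prdx6 (-0.22 to 0.03), Sod1 (-0.11 to 0.04) and Cat (-0.01 to 0.12), and for the interaction of Prdx1 (-0.23 to 0.01) and Prdx6 (-0.22 to 0.04). The cause was not tested. The planned edgeR and DESeq2 fits were not run, since every value stands for at least 10 reads, so the step of a single read behind the recovered counts could not be checked directly. The median standard error of a log2 fold change was 0.09 with the block and 0.18 without it, and what depth adds to it was not tested.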
